A study of Sus scrofa with 8 samples.

Results

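Markers of macrophages and mast cells were examined in the endometrium of pregnant Meishan and Yorkshire gilts on day 12 of gestation. The set held 9 genes, CD163, CD68, CSF1R, CSF1, KIT, KITLG, TYROBP, FCER1G and AIF1. Probesets are groups of short oligonucleotides that together read a transcript. One was taken for a gene when the array's annotation, or the gene table published alongside the data, gave that gene's symbol. By this rule 6 of the 9 genes were represented by 7 probesets, out of 23999 probesets tested, 10069 of which carried 1 gene symbol covering 6765 genes. Both CD163 probesets were kept. No probeset was named CD68, CSF1R or CSF1 in either source, so these 3 genes were not analysed here, and the receptor and main ligand of the macrophage growth factor pathway are not covered by direct measurements.

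The study compared 2 breeds of pig that differ in litter size, the Chinese Meishan and the European Yorkshire, with 4 gilts of each breed and 1 one-colour Affymetrix Porcine Genome array per gilt. Gilts had been mated to boars of their own breed, and tissue was used only where the conceptuses in the uterus had elongated, so both groups were pregnant and at a matched conceptus stage. No group received a treatment. Endometrium was taken as a whole tissue, and breed differences in cell makeup, genotype and sequence under the probes all enter a difference between the groups. In such tissue, fewer cells of a type and less RNA per cell cannot be told apart.

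Macrophages and mast cells are resident immune cells of the uterine lining. Macrophages depend on CSF1 acting through the receptor tyrosine kinase CSF1R, and they clear debris and take part in the remodelling of tissue around implantation. Mast cells depend on the related receptor KIT and its ligand KITLG, also called stem cell factor, and they store histamine and proteases such as tryptase in granules that are released when the IgE receptor is crosslinked. FCER1G and TYROBP are small adaptor proteins whose cytoplasmic motifs, called ITAMs, pass the signal of such receptors to the kinase SYK in myeloid cells and natural killer cells.

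Values are given as scaled signals, which are the deposited signals after every array was brought to the same median of 183 over the probesets tested. Where 4 values of a breed are listed, they are in the order of gilts 1 to 4. Group means are geometric means of scaled signals, and differences are Meishan minus Yorkshire on the log2 scale, with the standard error (SE) of limma's moderated linear model. A probeset was called different at an adjusted p (Benjamini-Hochberg, over all probesets) below 0.1. Signals of single probesets were not set against each other, because oligonucleotides differ in how strongly they bind. Sums of signals over a list are for the same reason weighted toward its brightest probesets. All 10 measured genes of a list of endometrial markers gave a signal of at least 64, below which a signal is taken as low here, in at least 1 gilt, among them PGR, the progesterone receptor, which lay between 268 and 579 in the 8 gilts. None of the 10 was called by limma, and PGR at -0.56 (without overlap) and SLPI, a secreted protease inhibitor, at -1.14 were toward Yorkshire at an unadjusted p below 0.05. The ratio of 3′ to 5′ signal for GAPDH, a sign of RNA integrity, averaged 2.21 in Meishan and 2.15 in Yorkshire gilts on the log2 scale (exact permutation test, two-sided p = 0.83, n = 4 and 4). Hybridization spike-ins, which are added to every sample in the same amount, were higher on the Meishan arrays by 0.99 on the log2 scale with no overlap (exact permutation test, two-sided p = 0.0286, the smallest that 70 splits allow), and the part of this in the results was not tested.

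KIT, the stem cell factor receptor, was more abundant in Yorkshire endometrium, and the other 6 probesets overlapped between the breeds. KIT was the single member called, 1 of 7 probesets, where 0.908% of all probesets tested were called and 0.504% were called as higher in Yorkshire. KIT was also the single member without overlap between the breeds. Of all probesets tested, 10.1% were without overlap, 5.01% with Meishan above and 5.09% with Yorkshire above. An unadjusted p below 0.05 was reached by 7.79% of them toward Meishan and 6.96% toward Yorkshire. Across the 7 probesets, 3 lay toward Meishan, as did 51.7% of all probesets, and 4 toward Yorkshire, with a median difference of -0.16 beside 0.02 over all probesets. A plot of the scaled signals shows these values by gilt.

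**Figure D1:**
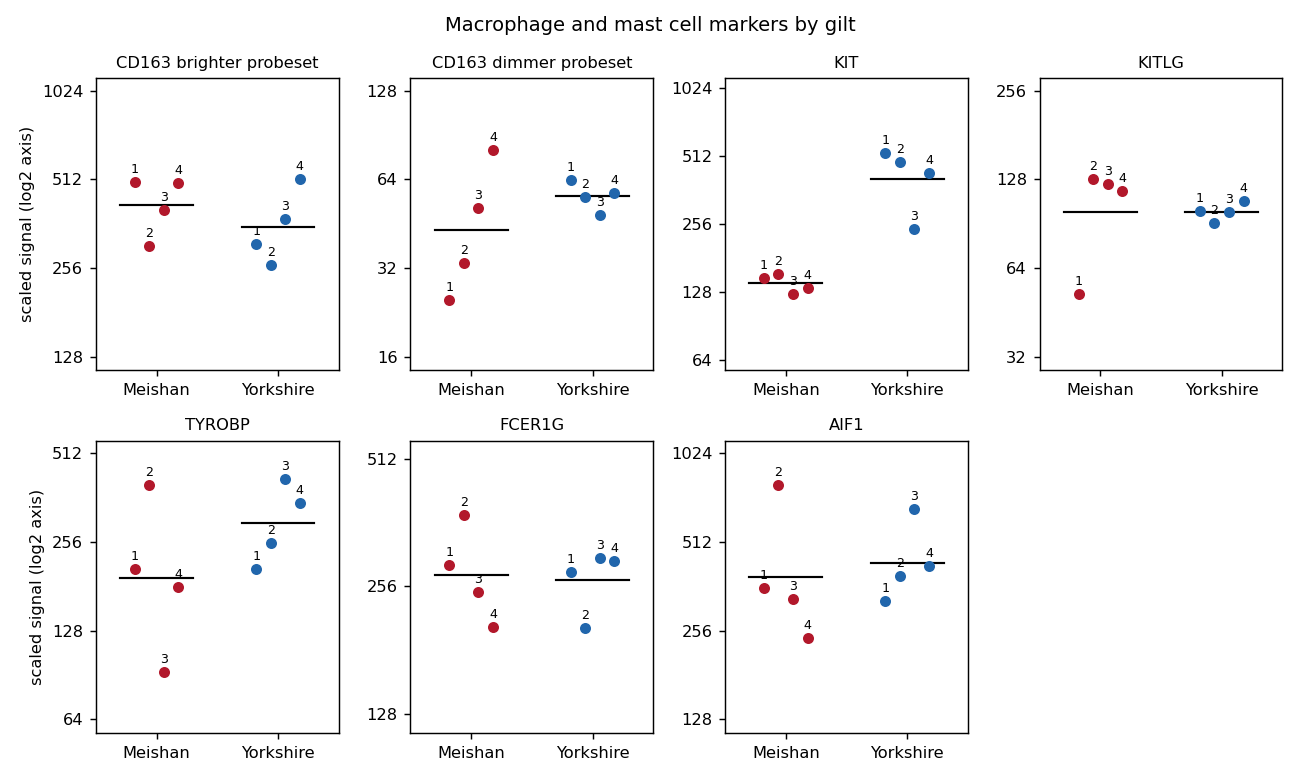
Scaled signal of each of the 7 probesets in endometrium of the 4 Meishan and 4 Yorkshire gilts, on a log2 axis, with 1 numbered point per gilt and a bar at the geometric mean of the breed. All 4 Yorkshire gilts lie above all 4 Meishan gilts for KIT (243 to 526 against 126 to 154), and the breeds overlap in the other 6 panels.

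The KIT probeset read 147, 154, 126 and 133 in Meishan endometrium, and 526, 479, 243 and 432 in Yorkshire endometrium. The Meishan gilts lay close together, within 1.23-fold of each other, whereas Yorkshire gilt 3 was well below the other Yorkshire gilts but still above every Meishan gilt. The geometric means were 140 in Meishan and 403 in Yorkshire, 2.89-fold higher in Yorkshire, a log2 difference of -1.53 (SE 0.27, 95% confidence interval -2.14 to -0.92, limma adjusted p = 0.0726, n = 4 and 4). Leaving out Yorkshire gilt 3 gave a difference of -1.77 with limma adjusted p = 0.0458. Leaving out any other gilt ended the call, with limma adjusted p from 0.112 to 0.167. KIT ranked 131 of all 23999 probesets by p. Besides mast cells, KIT is expressed by melanocytes, blood stem cells, germ cells and the interstitial cells of the gut and other smooth muscle, and it is the gene of the dominant white coat colour of European white pigs, in which it is duplicated. Copy number at KIT was not measured here.

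KITLG, the ligand of KIT, read 52.2, 128.2, 124 and 117 in Meishan endometrium and 100.2, 91.0, 99.0 and 107.7 in Yorkshire endometrium. Meishan gilt 1 stood far below every other gilt, while the other 3 Meishan gilts were above all 4 Yorkshire gilts. The geometric mean was 99.3 in both breeds, with a 95% confidence interval of the log2 difference from -0.70 to 0.70 (SE 0.31, limma adjusted p = 1.00), so a difference of up to 0.70 in either direction was not resolved with these 8 gilts. Without Meishan gilt 1 the difference was 0.31 toward Meishan (limma adjusted p = 0.420).

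The members that mark macrophages and myeloid cells showed no called difference between breeds. AIF1, also called IBA1, is an actin-bundling protein of macrophages and was read at 356, 802, 328 and 242 in Meishan endometrium and at 322, 394, 663 and 425 in Yorkshire endometrium. Meishan gilt 2 was the highest of the 8, and the breeds overlapped over most of their range. The log2 difference was -0.16 (SE 0.40, 95% confidence interval -1.08 to 0.75, limma adjusted p = 0.881).

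TYROBP, also called DAP12, is the adaptor of TREM2 and of several other activating receptors, and it read 208, 399, 92.8 and 180 in Meishan endometrium and 208, 254, 417 and 348 in Yorkshire endometrium. It spread further within Meishan than any other member, with 4.30-fold between Meishan gilts 3 and 2. The difference was -0.62 (SE 0.44, 95% confidence interval -1.64 to 0.40, limma adjusted p = 0.562). Without Meishan gilt 2 the difference was -0.97 (limma adjusted p = 0.313), and the highest remaining Meishan gilt and the lowest Yorkshire gilt were nearly tied, at 207.687 and 207.755.

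FCER1G, the common gamma chain of the IgE receptor and of activating IgG receptors, read 288, 377, 248 and 205 in Meishan endometrium and 277, 204, 298 and 294 in Yorkshire endometrium. It was the least variable member within breeds, with a residual SD of 0.32 on the log2 scale beside a median of 0.44 over all probesets, and the difference was 0.04 (SE 0.24, 95% confidence interval -0.52 to 0.59, limma adjusted p = 0.957). The sign of this difference turned in some fits that left out 1 gilt, to -0.12 without Meishan gilt 2, and that of AIF1 turned to 0.06 without Meishan gilt 4.

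CD163, the scavenger receptor by which macrophages take up haemoglobin bound to haptoglobin, was represented by a brighter and a dimmer probeset. The brighter read 502, 304, 403 and 496 in Meishan endometrium and 309, 263, 374 and 511.8 in Yorkshire endometrium, a difference of 0.24 (SE 0.27, 95% confidence interval -0.38 to 0.87, limma adjusted p = 0.721). The dimmer read 24.9, 33.2, 51.0 and 80.6 in Meishan endometrium and 63.5, 55.9, 48.3 and 57.3 in Yorkshire endometrium, and reached 64 in 1 gilt of the 8. Its difference was -0.38 (SE 0.36, limma adjusted p = 0.664), so the probesets pointed in opposite directions and neither difference exceeded the spread between gilts.

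Within each breed, the highest values of AIF1, TYROBP and FCER1G fell in the same gilt. Meishan gilt 2 was the highest Meishan gilt, and Yorkshire gilt 3 the highest Yorkshire gilt, for each of the 3 genes. For the brighter CD163 probeset, by contrast, Meishan gilt 2 was the lowest Meishan gilt. Over the 8 gilts the correlation of log2 signals was r = 0.755 for TYROBP with AIF1 (exact permutation p = 0.0307, 0.323 after Benjamini-Hochberg adjustment over the 21 pairs of members) and Spearman's rho was 0.857 (exact permutation p = 0.0107, adjusted 0.225). For FCER1G with AIF1, r was 0.768 (exact permutation p = 0.0268, adjusted 0.323) and rho 0.738 (exact permutation p = 0.0458, adjusted 0.481). For TYROBP with FCER1G, r was 0.543 (exact permutation p = 0.164, adjusted 0.689) and rho 0.690 (exact permutation p = 0.0694, adjusted 0.486). No pair of members passed the adjustment, and these pairs were chosen after their values were seen. Without the 2 gilts farthest from the median of the first gene of each pair, r was 0.904, 0.853 and 0.680 in that order, and after subtraction of each breed's mean it was 0.780, 0.790 and 0.649. The brighter CD163 probeset and AIF1 gave r = -0.384.

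**Figure D2:**
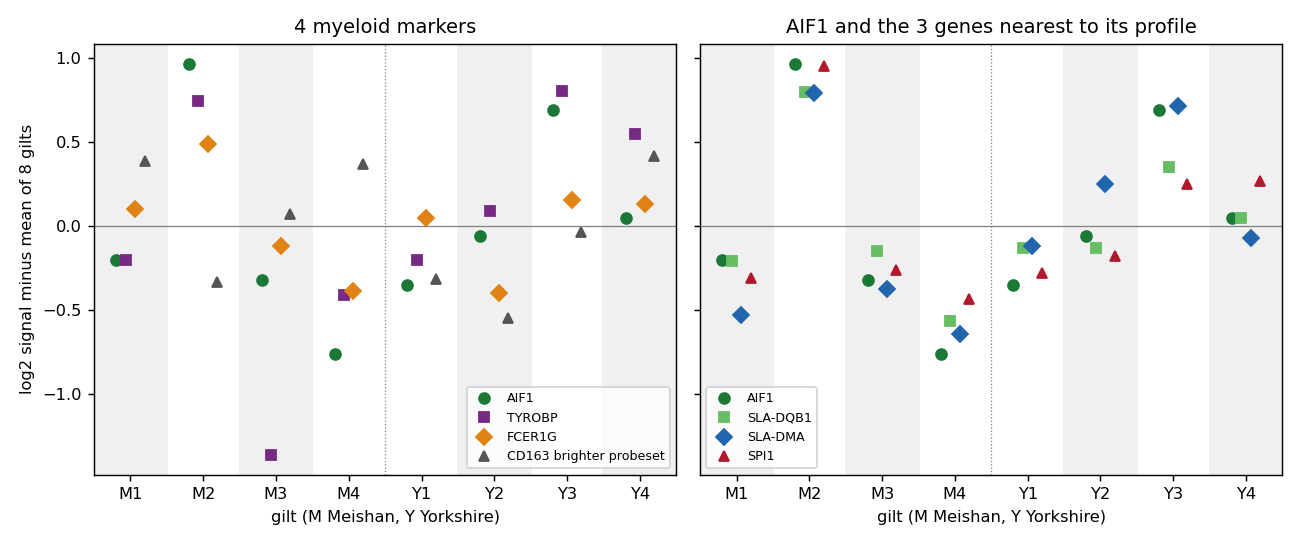
Log2 signal in each gilt relative to the mean of the 8 gilts, for AIF1, TYROBP, FCER1G and the brighter CD163 probeset (left) and for AIF1 with the 3 named genes whose pattern was most like it, SLA-DQB1, SLA-DMA and SPI1 (right). Meishan gilt 2 is the highest Meishan gilt for AIF1, TYROBP and FCER1G and the lowest for CD163.

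For each member, the genes with the most similar pattern were found as those with the smallest root mean square difference in log2 signal, after each probeset was centred on its mean over the 8 gilts, among the other probesets with 1 symbol and a mean log2 signal of at least 6. For AIF1, whose own root mean square deviation was 0.532, these were SLA-DQB1 at 0.183, SLA-DMA at 0.199 and SPI1 at 0.218. SLA-DQB1 and SLA-DMA belong to the pig MHC class II region, and SPI1 is the transcription factor PU.1 of myeloid and B cells. For FCER1G (0.278) they were GP91-PHOX at 0.121, the NADPH oxidase subunit of phagocytes, PTN at 0.135 and MBNL3 at 0.141. For TYROBP (0.672) they were WARS at 0.247, LFNG at 0.294 and IFIT1 at 0.298. KIT (0.83) was most like DYNC1LI2 at 0.288, MSRB2 at 0.344 and RALA at 0.352. KITLG (0.385) was most like RCAN3 at 0.155, TMEM184C at 0.158 and SYNE2 at 0.166, and the brighter CD163 probeset (0.349) was most like DYRK3 at 0.0846, CDS2 at 0.107 and MRPL58 at 0.117. These distances describe the same 8 arrays from which each pattern was taken, and no test was attached to them.

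Most measured mast cell genes lay toward Meishan, opposite to KIT, most of them by little and none with a call. Of 27 genes listed, 8 were measured, of which 6 lay toward Meishan and 2 toward Yorkshire, with a median log2 difference of 0.13. None of the 8 was called by limma, and at an unadjusted p below 0.05 there were 2 toward Meishan and 1 toward Yorkshire, where 7.79% and 6.96% of all probesets were. The sum of the list's signals lay between 13320 and 15505 among Meishan gilts and between 11902 and 13877 among Yorkshire gilts. Its largest contributors included genes that other cells also express, such as CD63 and SRGN.

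**Figure D3:**
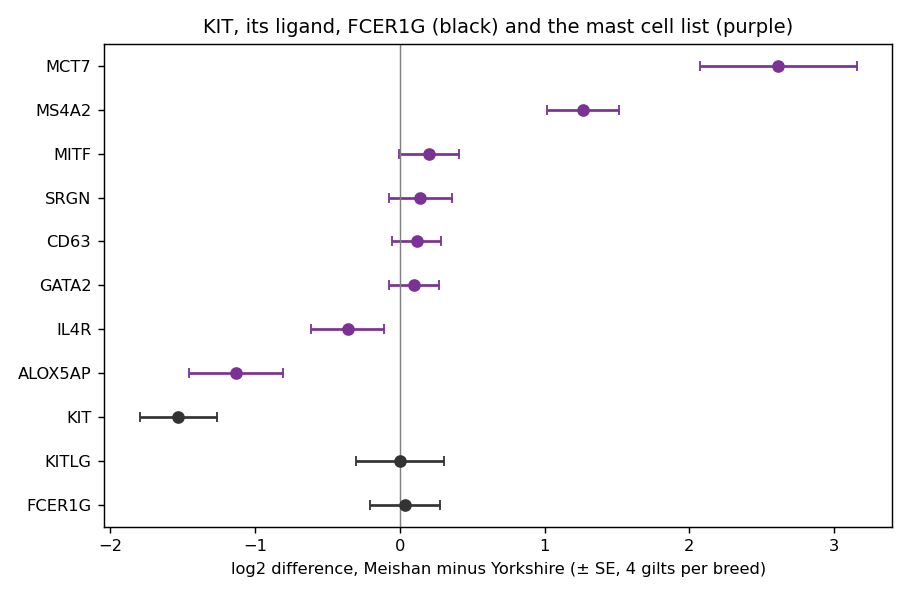
Log2 difference, Meishan minus Yorkshire, with its SE from limma (n = 4 and 4) for KIT, KITLG and FCER1G (black) and the 8 measured mast cell genes (purple). KIT at -1.53 and ALOX5AP at -1.13 lie to the Yorkshire side, and MCT7 at 2.61 and MS4A2 at 1.27 to the Meishan side.

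MS4A2, the beta chain of the IgE receptor and a defining mast cell and basophil gene, read 126, 181, 155.8 and 202 in Meishan endometrium and 83.9, 50.0, 84.6 and 60.3 in Yorkshire endometrium. All Meishan gilts were above all Yorkshire gilts, at a difference of 1.27 (SE 0.25), which just missed the threshold (limma adjusted p = 0.101) and ranged in adjusted p from 0.0410 to 0.255 under 19 alternative settings, 5 of them below the threshold. Yorkshire gilts 2 and 4 lay below 64 at this probeset. A dimmer MS4A2 probeset, with means of 70.4 and 19.0, gave 1.89 (SE 0.58, limma adjusted p = 0.201). MCT7, a mast cell tryptase that the published gene table names TPSB2, read 59.8, 116, 235 and 243 in Meishan endometrium and 22.7, 45.5, 13.1 and 21.0 in Yorkshire endometrium. Its Yorkshire values were all below 64, where a fold change is poorly defined, and the difference was 2.61 (SE 0.54, limma adjusted p = 0.107, and 0.0512 to 0.248 under 18 alternative settings, 5 of which called it, among them the fit without Meishan gilt 1 at 0.0847). Tryptases are a family of near-identical genes, so the MCT7 probeset may read more than 1 of them.

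ALOX5AP, the protein that presents arachidonic acid to 5-lipoxygenase for leukotriene synthesis in mast cells and other leukocytes, read 113, 119, 176 and 74.3 in Meishan endometrium and 188, 248, 390 and 224 in Yorkshire endometrium. The Yorkshire gilts were all higher, at -1.13 (SE 0.33, limma adjusted p = 0.185). IL4R, one chain of the receptor for interleukin 4, gave -0.36 (limma adjusted p = 0.548). The transcription factors MITF and GATA2, at their brighter probesets, the granule proteoglycan SRGN and the granule membrane protein CD63 differed by 0.10 to 0.20 toward Meishan without a call. A dimmer MITF probeset gave 0.55 (limma adjusted p = 0.248). For GATA2 a dimmer probeset gave -0.28, toward Yorkshire (limma adjusted p = 0.635). KIT and the mast cell genes MS4A2 and MCT7 lay on opposite sides, each in non-overlapping gilts, and KIT was called while MS4A2 and MCT7 just missed the threshold.

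Macrophage and monocyte genes were balanced between the breeds. Of 60 genes listed, 37 were measured, 18 toward Meishan and 19 toward Yorkshire, with a median difference of -0.03. None was called by limma, and 2 toward Meishan and 4 toward Yorkshire had an unadjusted p below 0.05, where 7.79% and 6.96% of all probesets did. The sum of the list's signals lay between 21865 and 27058 among Meishan gilts and between 21917 and 28379 among Yorkshire gilts. CEBPB, the brightest of the list at 4697 to 12418 in single gilts, weighed most in this sum. LY96, the MD-2 protein that binds endotoxin together with TLR4, read 304, 427, 585 and 310 in Meishan endometrium and 1150, 989, 1042 and 623 in Yorkshire endometrium. All Yorkshire gilts were above all Meishan gilts, at -1.24 (SE 0.29, limma adjusted p = 0.132). CD209, a lectin receptor of macrophages and dendritic cells, had means of 173 in Meishan and 329 in Yorkshire without overlap, at -0.93 (SE 0.29, limma adjusted p = 0.209). LY86, an MD-2 relative, gave -1.14 (limma adjusted p = 0.216), and CD80, a costimulatory ligand for T cells, gave 0.68 toward Meishan (limma adjusted p = 0.256). Without overlap were 1 gene toward Meishan and 2 toward Yorkshire, where 5.01% and 5.09% of all probesets were. The gene toward Meishan was ITGB2, at 0.66 (limma adjusted p = 0.292).

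**Figure D4:**
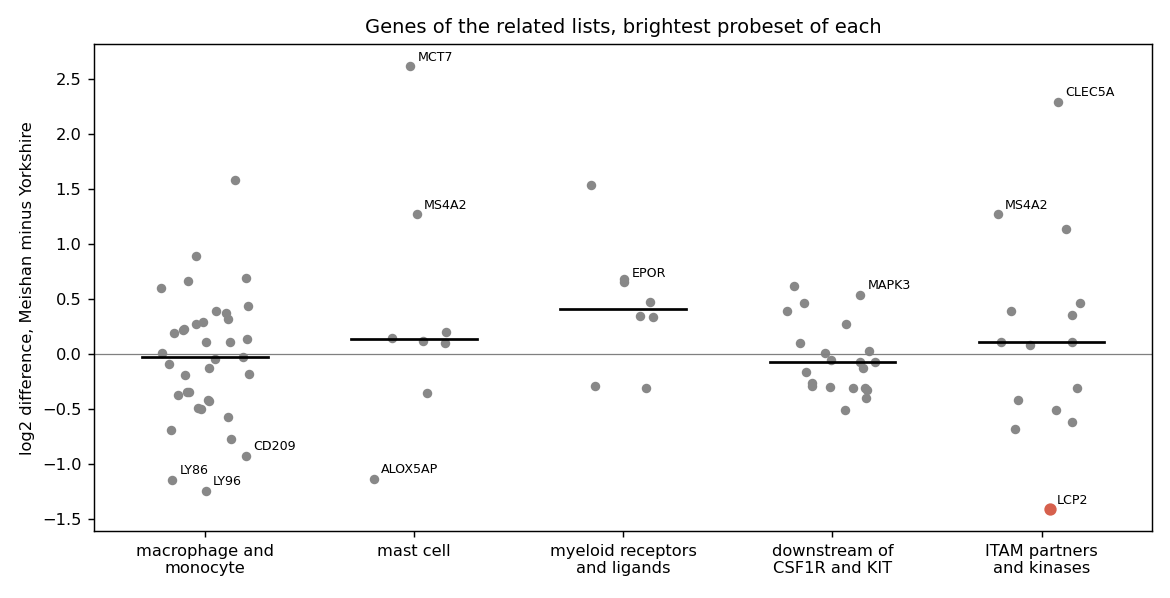
Log2 difference, Meishan minus Yorkshire, of each measured gene in 5 lists related to the markers, with 1 point per gene and a bar at the median of the list. The single called gene, LCP2 at -1.41, is drawn in red, and the medians of the lists lie between -0.08 and 0.41.

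ITAM signalling, to which FCER1G and TYROBP belong, held 1 called gene among 15 measured, where 0.908% of all probesets were called. Of 30 listed partners and kinases 15 were measured, 9 toward Meishan and 6 toward Yorkshire, with a median of 0.11, and 2 toward Meishan and 1 toward Yorkshire had an unadjusted p below 0.05. LCP2, the adaptor SLP-76 that links SYK family kinases to calcium release in mast cells, T cells and platelets, read 81.6, 58.6, 74.4 and 57.0 in Meishan endometrium and 131, 164, 230 and 206 in Yorkshire endometrium. The breeds did not overlap, and LCP2 was higher in Yorkshire, at -1.41 (SE 0.24, limma adjusted p = 0.0654). Its signal was low, below 64, in Meishan gilts 2 and 4. The call held without Meishan gilt 1 or Yorkshire gilt 1 and ended without any other gilt. LYN, a kinase that phosphorylates ITAMs, gave 0.46 (limma adjusted p = 0.361), and CLEC5A, a receptor that signals through TYROBP, had signals too low to rank, with means of 6.05 and 1.24.

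Growth factor receptors of the myeloid lineage and their ligands were sparsely covered. Of 18 listed genes 8 were measured, 6 toward Meishan and 2 toward Yorkshire, with a median of 0.41. Among the 8, 4 (CSF2, IL4, IL6 and IL13) stayed below 64 in all gilts. Dim probesets leaned to Meishan over the whole array, with a median of 0.46 in the tenth that holds IL13 and 0.31 in that of CSF3. After quantile normalization these medians were 0.10 and 0.04. The part of this lean in the list's median was not tested. None was called by limma, and the 1 with an unadjusted p below 0.05 was EPOR, the erythropoietin receptor, at 0.65 toward Meishan (limma adjusted p = 0.306). PDGFRB, the platelet-derived growth factor receptor of mesenchymal cells, gave -0.31, narrowly without overlap (limma adjusted p = 0.429). CSF3, the granulocyte growth factor, had means of 33.4 and 11.5 and IL13, a type 2 cytokine, of 4.10 and 2.56, both too low to rank. IL34, the other ligand of CSF1R, read 213, 227, 151 and 153 in Meishan endometrium and 155, 146, 137 and 143 in Yorkshire endometrium. Meishan gilts 1 and 2 were above all Yorkshire gilts, and the difference was 0.34 (SE 0.20, limma adjusted p = 0.477). Of 44 listed genes acting downstream of CSF1R and KIT, 21 were measured, 8 toward Meishan and 13 toward Yorkshire, with a median of -0.08 and none called by limma. The 1 gene with an unadjusted p below 0.05 was MAPK3, the kinase ERK1, with means of 1113 in Meishan and 767 in Yorkshire without overlap, at 0.54 (SE 0.15, limma adjusted p = 0.183). The phosphatase PTPN6, which restrains KIT and ITAM signals, gave 0.61 (limma adjusted p = 0.412). The phospholipase PLCG1 gave -0.31 without overlap (limma adjusted p = 0.435).

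Markers of other cells that the tissue could hold were set beside these results. Of 9 endothelial markers, 4 lay toward Meishan and 5 toward Yorkshire, with a median of -0.25, and none was called by limma. CLDN5 at -0.71 and CDH5 at -0.58 had an unadjusted p below 0.05 and did not overlap, whereas VWF at -0.53, TEK at -0.32 and TIE1 at -0.25 overlapped. EGFL7 at 0.26, ENG at 0.20, PECAM1 at 0.11 and ESAM at 0.04 lay toward Meishan. Other probesets of these genes did not all point the same way. A dimmer CDH5 probeset, with means of 329 and 311, gave 0.08 (limma adjusted p = 0.881). Dimmer VWF probesets gave 0.44 and 1.38, and a dimmer PECAM1 probeset 0.33. Dimmer TEK probesets gave -0.61 and -0.77, and dimmer ESAM probesets 0.94 and -0.10. The summed signal of the list lay between 6673 and 6808 among Meishan gilts and between 6970 and 8934 among Yorkshire gilts. This sum was higher in Yorkshire, as KIT and LCP2 were, although the markers were split in direction, and the part of endothelial cells in the differences of KIT and LCP2 was not tested. Melanocyte and interstitial cell markers, which bear on KIT, were measured for 2 of 7 listed genes. TYR, tyrosinase, had means of 124 and 86.2, and TYRP1 had means of 28.3 and 3.45, in Meishan and Yorkshire respectively. TYRP1 was below 64 in 7 of 8 gilts, too low to rank, and its difference of 3.04, with an unadjusted p below 0.05, fell to 0.41 (limma adjusted p = 0.471) after signals below 32 were set to 32. Neither gene was called by limma, and TYR differed by 0.52 toward Meishan (limma adjusted p = 0.545), with summed signals of the list of 97.5 to 238 in Meishan and 56.9 to 153 in Yorkshire gilts. The B cell gene CD79B was called as higher in Meishan, at 1.23 (SE 0.24, limma adjusted p = 0.0920), with means of 80.4 and 34.3. Its Yorkshire values were all below 64, where a fold change is poorly defined. That call was absent after quantile normalization (limma adjusted p = 0.167) and cyclic loess normalization (limma adjusted p = 0.153), and it ended without any 1 gilt. No gene of the neutrophil and eosinophil, T and natural killer cell, epithelial, stromal, smooth muscle, red blood cell or conceptus lists was called by limma. Of these lists, T and natural killer cell markers had 2 genes toward Yorkshire and stromal markers 1 gene toward Meishan at an unadjusted p below 0.05, and the others none. Conceptus markers, which would be carried by trophoblast adhering to the endometrium, summed to 400.4 to 1491 in Meishan and 483 to 6991 in Yorkshire gilts. The high sums came from IFNG, the interferon that pig conceptuses secrete, which read 4604 in Yorkshire gilt 1 and 6286 in Yorkshire gilt 3 but 221 and 33.5 in the other Yorkshire gilts. In Meishan gilts IFNG read 14.2, 904, 304 and 114. Of the 7 conceptus markers measured, 3 lay toward Meishan and 4 toward Yorkshire.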

How the data were processed

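Endometrial RNA of 4 Meishan and 4 Yorkshire gilts was measured on Affymetrix Porcine Genome arrays with 1 colour, an array for each gilt. The authors converted the scans to signals with GCOS 1.2, and the deposited intensities are linear, with a mean near 500.1 on each array after trimming 2% of probesets at each end. The authors' own test was a mixed model on natural logs with q-values below 0.1. They also measured chosen genes, KIT, ALOX5AP, LY96 and CDH5 among them, by quantitative PCR in RNA of the same animals. These were picked from the genes that their own test called different, a longer list than the limma calls here. ALOX5AP, LY96 and CDH5 were thus called by the authors, though not by limma here. The paper also lists CD63 among genes more abundant in Meishan. Every gene assayed went in the direction of the array by their account, and most differed significantly. The gene table published with the study was used for names only.

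Analysis used R 4.3.3 and limma 3.58.1. Of 24123 probesets, 124 controls were left out. Intensities were put on the log2 scale and the median of the 23999 others was subtracted within each array, with no filter and no floor. The breeds were compared with lmFit and eBayes, with Benjamini-Hochberg adjustment over all 23999 and a threshold of 0.1. No slide or scan grouping was given in the sources used here, so no batch was tested. The platform annotation gave 1 symbol for 10069 probesets, several for 198 and none for 13732. The fit was first tested on simulated data in which 200 probesets had been changed. Correlations used exact permutations in Python 3.11.15 with SciPy 1.17.1.

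The member genes, the 16 gene lists and the alternatives were chosen with earlier results of these data known. From each of the 5 lists of related genes, the 4 genes with the smallest p were named, together with every called gene. From the other lists the endothelial and melanocyte genes were named, and the rest were mostly given as counts. IL34, MITF, GATA2, SRGN, CD63, PGR, SLPI, IFNG, ITGB2, CEBPB, GNLY, CD3D and the endothelial genes beyond the first 4 were added after their values were seen. A list gene with several probesets was represented by the one with the higher mean. Precision is limited by the small number of arrays, and present and absent calls were not used. Gilts with the same replicate number did not deviate together.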

Additional observations from a re-analysis of the deposited data

Results flagged for a closer look

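KITLG in Meishan endometrium was taken up for a closer look because Meishan gilt 1, at a scaled signal of 52.2, stood apart from the other 3 Meishan gilts. Its gap to the nearest of them made up 0.901 of the range of the 4 log2 signals, above Dixon's 95% critical value for a group of 4. Each breed was checked for each of the 7 probesets, 14 groups in all, and chance alone flags about 5% of groups. The same gilt was not the lowest Meishan gilt for KIT, TYROBP, FCER1G, AIF1 or the brighter CD163 probeset, and was the lowest for the dimmer CD163 probeset. Low readings in it were not limited to KITLG. The T and natural killer cell genes GNLY, at 9.51, and CD3D, at 5.90, were also lowest there of all gilts. So were RCAN3, TMEM184C and SYNE2, which had been picked for their likeness to KITLG. Before scaling, its array had the lowest median, 168. The cause was not tested.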

How the results depend on the processing

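KIT stayed higher in Yorkshire under 19 alternatives, with log2 differences from -1.77 to -1.40 and limma adjusted p from 0.0251 to 0.192, and 9 of the 19 called it. The 218 calls over all probesets became 642 when the dimmest probesets were dropped to leave as many as the study's detection call kept, 777 after a floor of 32 on the signals, 626 with a trend of variance on intensity, 497 with array weights, 632 with Storey q-values, 60 at an adjusted p below 0.05, and 72 (without Meishan gilt 4) to 205 when 1 gilt was left out. The number of members called fell from 1 to 0 in the unmoderated linear model (KIT adjusted p = 0.104) and at an adjusted p below 0.05, and was 0 to 1 when 1 gilt was left out. Members without overlap numbered 1 to 2 when 1 gilt was left out, the second being KITLG without Meishan gilt 1 and TYROBP, nearly tied, without Meishan gilt 2. Over all 16 lists 154 genes were measured, and 2 were called as reported (LCP2 in a related list and CD79B in the B cell list). Of all probesets, 0.908% were called. The number of called list genes was 1 with quantile or cyclic loess normalization, 4 without the dimmest probesets, 8 after the floor, 6 with the trend, 5 with array weights, 6 with Storey q-values, 0 at an adjusted p below 0.05, 4 with names from both sources, and 0 to 2 when 1 gilt was left out. Among genes not called as reported, MS4A2 was called in 5 of 19 alternatives, MCT7 in 5 of 18, LY96 in 4 of 19, MAPK3 in 3 of 19, CLEC5A in 3 of 18, and CLDN5 and CDH5 in 2 of 19 each.

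Differences near 0 changed sign. KITLG was -0.068 with quantile and -0.11 with cyclic loess normalization, and without 1 gilt it ranged from -0.12 to 0.31, FCER1G from -0.12 to 0.18 and AIF1 from -0.51 to 0.063. IL13 and CLEC5A were both -0.063 after the floor, which is the shift left by centring, since all their signals lay under the floor. With the replicate number as a block, limma called 0 probesets (3327 at an unadjusted p below 0.05), 0 members and 0 list genes, and KIT had an adjusted p of 0.192. The numbers do not pair the gilts, since same-numbered gilts had deviations correlated from -0.06 to 0.09 and 3 of 8 gilts correlated best with their own number. The causes of these changes were not tested. With 4 gilts per breed, the 95% interval of a member's difference spanned 1.11 to 2.04 on the log2 scale. The dimmer CD163 probeset, CLEC5A, and MCT7 and CD79B in Yorkshire were read at low signal. Signals below 64 also occurred for LCP2 in Meishan gilts 2 and 4 and for MS4A2 in Yorkshire gilts 2 and 4. The same held for KITLG in Meishan gilt 1, for CD80 in some Yorkshire gilts and for EPOR in gilts of both breeds.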
